A study of Mus musculus with 31 samples.

Results

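Ccl3, Ccl4, Ccl5 and Ccr1 were followed through bulk RNA-seq of the mouse masseter muscle (MM). The 4 genes were taken by symbol from all 31 libraries, which list 22609 genes, and all 4 symbols were present. Male C57BL/6J mice of 2 to 4 months received an injection into the MM of complete Freund's adjuvant (CFA, an emulsion holding killed mycobacteria that provokes inflammation), of collagenase type 2 (Col, an enzyme that digests collagen) at 0.2U or 10U, or of vehicle. The whole muscle was sequenced, 1 library per mouse. The CFA experiment had 3 mice at 1d, 3 mice at 5d and 3 vehicle mice. The Col experiment had 3 vehicle mice, 4 mice in each 0.2U group (labels 1C and RPC) and, after 10U Col, 4 mice at 2d, 3 at 6d and 4 at 12d. The days of the 10U groups are those of the labels, and the study's text gives 1d for the 2d group and 14d for the 12d group. The labels give no collection day for 1C, RPC or the vehicle mice. The study's text gives 1d and 5d for 0.2U Col and does not tie these days to 1C and RPC. All values come from males, and the vehicle mice were injected as well, so that no library stands for an untouched muscle.

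Chemokines are small secreted proteins that set the direction in which leukocytes migrate. Ccl3 and Ccl4 (macrophage inflammatory proteins 1 alpha and 1 beta) are released within hours by stimulated macrophages, monocytes and neutrophils, whereas Ccl5 (RANTES) is typically made by activated T cells, natural killer cells and some macrophages. Ccr1 is a G protein-coupled receptor on monocytes, macrophages and neutrophils that binds Ccl3 and Ccl5 and, in the mouse, further ligands such as Ccl6, Ccl7 and Ccl9. Other receptors of these ligands are not analysed here, apart from Ccr3 and the scavenging receptors Darc and Ccbp2. In the mouse genome (NCBIM37, the assembly also called mm9) the ligand genes lie close together on chromosome 11, Ccl5 at chr11:83339280-83344020 on the minus strand, Ccl3 at chr11:83461346-83462857 on the minus strand and Ccl4 at chr11:83476086-83478185 on the plus strand. Ccr1 lies on the minus strand at chr9:123876959-123883525. All are protein-coding, no annotated gene overlaps them, and none of their 50-base exon windows occurs in the exons of another gene.

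Promoter windows of 300 bases, from 250 before to 50 after the transcription start, were available in RefSeq's GRCm38.p6 annotation for Ccl3 (chr11:83649329-83649628) and Ccr1 (chr9:123968643-123968942), both on the minus strand. They are shown because they were the windows available, with none for Ccl4 or Ccl5. Capitals mark the matches to the motifs searched on both strands, which were a kappaB-like motif (GGG and TTCC with any 3 bases between), an AP1-like motif (TGANTCA), an ISRE-like motif (GAAA, any 2 bases and GAAA again), an ETS-like motif (GAGGAA) and TATAAA.
Ccl3 promoter: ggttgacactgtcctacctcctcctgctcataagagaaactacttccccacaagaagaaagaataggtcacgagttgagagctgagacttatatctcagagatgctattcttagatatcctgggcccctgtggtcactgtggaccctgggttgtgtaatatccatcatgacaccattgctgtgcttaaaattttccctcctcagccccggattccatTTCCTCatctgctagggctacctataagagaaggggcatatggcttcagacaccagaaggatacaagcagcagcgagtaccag
Ccr1 promoter: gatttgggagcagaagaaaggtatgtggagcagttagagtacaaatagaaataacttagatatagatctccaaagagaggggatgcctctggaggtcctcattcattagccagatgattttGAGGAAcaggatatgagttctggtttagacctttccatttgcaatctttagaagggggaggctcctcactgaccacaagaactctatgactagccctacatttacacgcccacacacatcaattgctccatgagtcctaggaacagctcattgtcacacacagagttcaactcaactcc
Each window held 1 match, to the ETS-like motif, which begins 33 bases before the start of Ccl3, on the opposite strand, and 129 bases before the start of Ccr1. Among 32851 promoters of this length 28.3% held the ETS-like motif, 13.6% TATAAA, 7.81% the AP1-like, 5.56% the kappaB-like and 3.44% the ISRE-like motif. With 1 match each, no match overlaps another. A match is a description of the letters and no evidence of binding.

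Each library held between 14843778 and 29076671 reads on genes, and values are given as CPM, the counts relative to the depth of the library, scaled by edgeR's TMM factors. At this depth 10 reads correspond to 0.344 to 0.674 CPM in unscaled libraries, so that the ligands lie near the lower end of what could be counted. The 6 skeletal muscle markers summed to between 27293 and 160918 CPM and marked every library as muscle. Transcripts of the salivary gland, an organ that neighbours the MM, were present to very different degrees, with 5 markers summing to 0.773 CPM at the lowest and 160702 CPM in 1 RPC library, and to at least 79721 CPM in all mice at 5d post-CFA. Markers of bone marrow granulocyte precursors (Elane, Mpo, Prtn3, Ctsg) reached 94.2 CPM in vehicle mouse 3 of the CFA experiment and 160 CPM in vehicle mouse 3 of the Col experiment, against 0.137 CPM and 0.732 CPM in the lowest vehicle mouse of each. Mouse 2 at 1d post-CFA and mouse 4 at 2d post-Col (10U) held the lowest Ccl3, Ccl4 and Ccr1 of their groups. Results that rest on these libraries are given with and without them. In whole muscle, fewer cells of a type and less RNA per cell cannot be told apart. The share of reads ambiguous between genes was 0.559 to 0.703% in the 10U libraries and 0.147 to 0.198% in the Col vehicle libraries. No library outside the 10U groups exceeded 0.26%. This library difference coincides with the 10U treatment, and its part in the comparisons with vehicle was not tested.

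**Figure D1:**
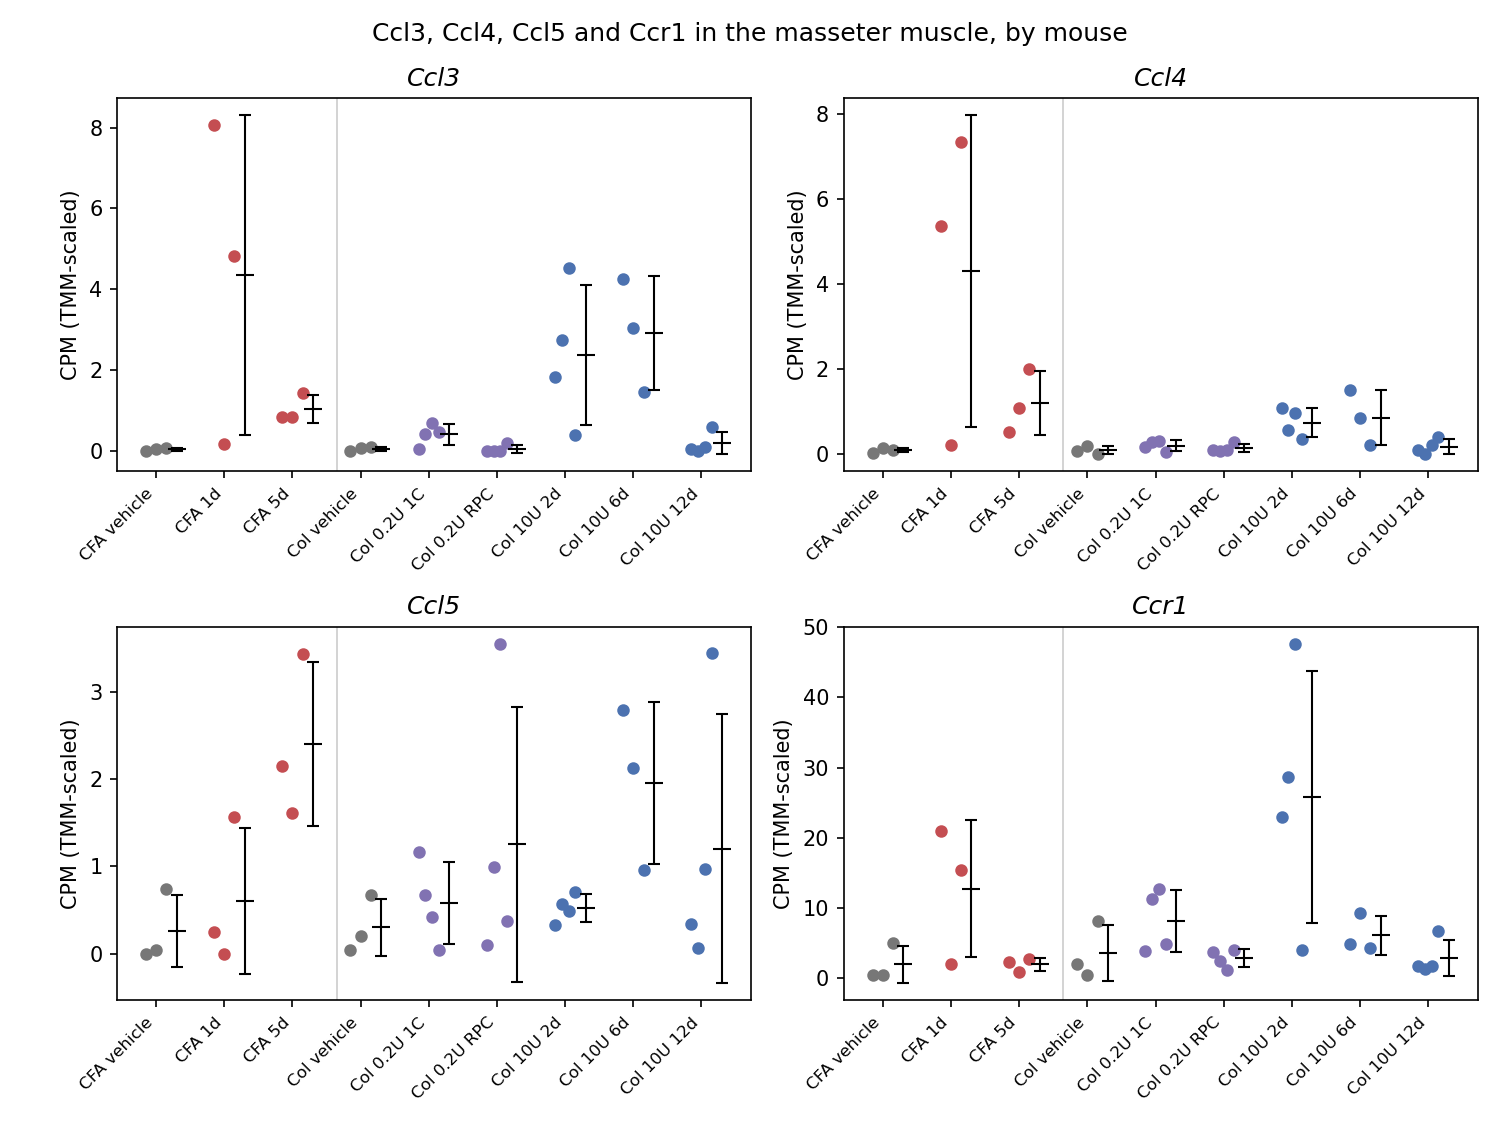
Level of each gene per mouse, in CPM scaled by TMM factors (linear axes), for the 9 groups. Points are mice, and the black mark with bars beside them is the mean ± SD. Ccl3 and Ccl4 stood highest at 1d post-CFA, Ccl5 at 5d post-CFA and Ccr1 at 2d post-Col (10U), and 1 low mouse is visible in each of the CFA 1d and Col (10U) 2d groups for Ccl3 and Ccr1.

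At 1d post-CFA, the ligands Ccl3 and Ccl4 stood above every vehicle mouse in all 3 mice, 2 of them by a wide margin, and Ccr1 did so in 2 of 3 mice. Ccl3 was at 8.06, 0.178 and 4.82 CPM (197, 4 and 108 reads) in the 3 mice, and at 0, 0.0456 and 0.0736 CPM (0, 1 and 2 reads) in the vehicle mice. Ccl4 was at 5.36, 0.222 and 7.32 CPM, against 0.0404, 0.137 and 0.110 CPM with vehicle. Mouse 2 was close to the vehicle group for both genes. The read rate over the group was 110-fold that of vehicle for Ccl3 (95% interval of the counting error 37.2 to 535) and 45.7-fold for Ccl4 (21.9 to 115), with 3 and 7 reads in all vehicle mice together, and these intervals leave out the spread between mice. Ccl5 was at 0.245, 0 and 1.56 CPM post-CFA and 0, 0.0456 and 0.736 CPM with vehicle, and the groups overlapped. The receptor Ccr1 was at 21.0, 2.00 and 15.4 CPM post-CFA and at 0.404, 0.456 and 5.04 CPM with vehicle.

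A gene was tested when at least 3 libraries of a comparison held at least 10 reads, and it was called up-regulated by edgeR's quasi-likelihood test when the Benjamini-Hochberg adjusted p was under 0.05, the fold change over 2 and the mean RPKM over 1 in a group. Ccl3 and Ccl4 held at most 2 and 3 reads in any vehicle mouse, so that against vehicle they could enter the test only through the treated mice. At 1d post-CFA, the filter left only Ccr1 among the 4 genes, with a shift of 2.64 ± 1.16 log2 units (SE) and an adjusted p of 0.924 from edgeR. The unadjusted edgeR p of Ccr1 was 0.0551, so that this 1 tested member was not under 0.05 before or after adjustment. Ccl3, Ccl4 and Ccl5 had no edgeR p under the filter. EdgeR called 0% of 13944 tested genes higher, although 588 of them had an unadjusted p under 0.05. DESeq2, which gave all 4 genes an adjusted p in this comparison, called Ccl3 and Ccl4 among the 0.318% of genes it called higher. Leaving out mice 1 to 3 of either group in turn gave adjusted p of 0.320 to 1.0 for Ccr1 in edgeR. The groups did not overlap for Ccl3 and Ccl4, which held for 3.05% of the tested genes. With 3 against 3 mice the exact two-sided permutation test cannot go below 0.1, which is the value it gave for Ccl3 and for Ccl4, while it gave 0.7 for Ccl5 and 0.2 for Ccr1.

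At 5d post-CFA, all 3 ligands were above every vehicle mouse while Ccr1 lay within the range of the vehicle group. Ccl3 was at 0.843, 0.834 and 1.43 CPM, and it was the 1 member that edgeR called up-regulated, with a shift of 4.54 ± 0.73 log2 units (SE) and an adjusted p of 0.0447. This call was lost without the filter on low counts (edgeR adjusted p of 0.0536), with DESeq2's size factors in edgeR (0.0543), with the replicate number as a block (0.0598), with both vehicle groups pooled (0.0755) and in 1 fit over all libraries (0.131). Ccl4 was at 0.515, 1.09 and 2.01 CPM, a shift of 3.63 ± 0.71 log2 units (SE) with an adjusted p of 0.0697 from edgeR. Since Ccl3 had 3 and Ccl4 7 reads in the vehicle group, their fitted fold changes depend on edgeR's prior count, and the read rates were 25.3-fold (8.25 to 126, counting error) and 12.4-fold (5.72 to 32.0) those of vehicle. Ccl5 was at 2.15, 1.62 and 3.44 CPM, its highest group mean of the series, with a shift of 3.15 ± 1.10 log2 units (SE) and an edgeR adjusted p of 0.25. Vehicle mouse 3 held 20 of the 21 Ccl5 reads of its group. Ccr1 was at 2.34, 0.939 and 2.75 CPM, and its log2 fold change was 0.04 ± 0.99 (SE).

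Among 14026 genes tested at 5d, edgeR called 0.913% higher, and all 4 members were tested. DESeq2 called Ccl3 and Ccl4 among the 3.41% it called higher. For all 3 ligands the groups were free of overlap, which was so for 12.8% of the tested genes. Leaving out a 5d mouse left Ccl3 with too few libraries to be tested, and leaving out vehicle mouse 1 or 2 ended the call, with an adjusted p of up to 0.173. Without vehicle mouse 3, Ccl3, Ccl4 and Ccl5 were all called, with edgeR adjusted p of 0.00279, 0.0133 and 0.000705, and Ccr1 reached a log2 fold change of 2.29 with an adjusted p of 0.0216 and was not called, its mean at 5d being 0.710 RPKM. The salivary gland markers in all 5d mice stood at 79721 to 117681 CPM and in the vehicle mice at 21.8 to 7368 CPM, and in the fit over all libraries the log2 fold change of Ccl3 was 4.47 ± 1.35 (SE) without and 4.82 ± 1.52 with salivary and marrow scores as covariates, called in neither.

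After 0.2U of Col, none of the 4 genes was called by edgeR or DESeq2 in either group, where DESeq2 gave no adjusted p for Ccl4 in 1C or for Ccl3, Ccl4 and Ccl5 in RPC. Ccl3 in group 1C was at 0.0556, 0.429, 0.690 and 0.466 CPM, above all 3 vehicle mice (0, 0.0665 and 0.0895 CPM) in 3 of 4 mice, and Ccl4 was at 0.167, 0.286, 0.319 and 0.0466 CPM against 0.0872, 0.200 and 0 CPM. The Ccl3 read rate in 1C was 8.37-fold that of vehicle (2.63 to 42.7, counting error), with an exact permutation p of 0.171, two-sided. Ccr1 in 1C was at 3.84, 11.3, 12.7 and 4.93 CPM against 2.09, 0.532 and 8.19 CPM in the vehicle mice of the Col experiment, a shift of 1.17 ± 0.83 log2 units (SE) with an edgeR adjusted p of 0.573. Ccl5 in 1C had a shift of 0.88 ± 1.03 log2 units (SE) and overlapped with the vehicle group.

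In the RPC group Ccl3 was without a read in 3 of 4 mice and at 0.188 CPM (4 reads) in mouse 4, and its read rate was 1.10-fold that of vehicle (0.186 to 7.5, counting error). Ccl4 was between 0.0764 and 0.283 CPM. Ccl5 spread over 0.0957, 0.993, 3.55 and 0.377 CPM, and mouse 3, the highest of all 31 mice for Ccl5, also held the highest sum of the CD8 T cell markers Cd8a and Cd8b1 (1.78 CPM). The log2 fold change of Ccl5 was 1.97 ± 1.24 (SE) with an edgeR adjusted p of 0.497. Ccr1 was at 3.78, 2.45, 1.22 and 4.05 CPM, within the range of the vehicle mice.

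Ccl5 and Ccr1 were the 2 members with enough reads for edgeR's test in each 0.2U group, neither had an unadjusted p under 0.05, and edgeR called 0% of 14493 genes higher in 1C and 0% of 14269 in RPC, with 1819 and 1923 genes at an unadjusted p under 0.05. DESeq2 called 1.72% of genes higher in 1C and 0.905% in RPC, with no member among them. No member had groups that did not overlap, against 4.22% of the tested genes in 1C and 4.79% in RPC.

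At 2d post-Col (10U), Ccl3 and Ccl4 were above every vehicle mouse in all 4 mice, and Ccr1 reached its highest level of the series. Ccl3 was at 1.83, 2.74, 4.54 and 0.392 CPM, and Ccl4 at 1.08, 0.570, 0.979 and 0.353 CPM. The read rates were 46.4-fold (15.6 to 227, counting error) and 8.75-fold (3.55 to 27.9) those of vehicle. Ccr1 was at 23.0, 28.7, 47.6 and 3.96 CPM, above all vehicle mice in 3 of 4 mice, with mouse 4 below vehicle mouse 3 (8.19 CPM). Ccl5, at 0.323, 0.570, 0.489 and 0.706 CPM, overlapped with the vehicle group (0.0436, 0.200 and 0.671 CPM).

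All 4 genes were tested at 2d, and none was called by edgeR, which called 0.946% of 14373 genes higher. The log2 fold changes were 5.36 ± 1.12 (SE) for Ccl3 with an edgeR adjusted p of 0.0504, 2.97 ± 0.89 for Ccl4 with 0.0761, 2.75 ± 1.02 for Ccr1 with 0.11 and 0.70 ± 0.79 for Ccl5 with 0.552. Ccl3, Ccl4 and Ccr1 had unadjusted p under 0.05. DESeq2 called these 3 genes, among 6.27% of all genes called higher. Without mouse 4, edgeR called Ccl3, Ccl4 and Ccr1, with adjusted p of 0.00284, 0.0266 and 0.0273. With mouse 4 kept, edgeR called the same 3 genes in 1 fit over all libraries (0.0045, 0.0368 and 0.0305) and with both vehicle groups pooled (0.00306, 0.00907 and 0.0227), and Ccl3 and Ccr1 with the replicate number as a block (0.00833 and 0.0151). Groups without overlap were found for Ccl3 and Ccl4, and for 13.4% of the tested genes. The exact permutation test gave a two-sided p of 0.0571 for both, the smallest that 4 against 3 mice allow.

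At 6d post-Col (10U), Ccl3 and Ccl5 were up-regulated and Ccr1 did not pass the test. Ccl3 was at 4.25, 3.05 and 1.45 CPM (99, 89 and 35 reads) in the 3 mice and held at most 2 reads in any vehicle mouse, a read rate 58.5-fold that of vehicle (19.8 to 286, counting error). EdgeR gave Ccl3 a shift of 5.69 ± 0.79 log2 units (SE) and an adjusted p of 0.00485. Ccl5 was at 2.79, 2.12 and 0.954 CPM, with a shift of 2.60 ± 0.81 log2 units (SE) and an edgeR adjusted p of 0.0482. Ccl4 was at 1.5, 0.856 and 0.207 CPM, with 35, 25 and 5 reads, and so missed the filter on low counts. Its lowest mouse barely exceeded the highest vehicle mouse (0.200 CPM). Ccr1 was at 4.81, 9.24 and 4.27 CPM, a shift of 0.69 ± 0.81 log2 units (SE) with an edgeR adjusted p of 0.541.

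The 2 calls at 6d compare with 8.11% of 14281 genes that edgeR called higher. DESeq2 called Ccl3, Ccl4 and Ccl5, and 8.03% of its genes were called higher. Ccl3, Ccl4 and Ccl5 were each without overlap between the groups, a property of 26% of the tested genes. Ccl3 remained called without any 1 vehicle mouse (adjusted p of 0.00684 to 0.0114) and was not tested without a 6d mouse, for lack of a further library. Ccl5 was called in 1 of 6 such fits, the one without vehicle mouse 3 (adjusted p of 0.0122), and reached an adjusted p of 0.148 in the others. Without vehicle mouse 3, edgeR also called Ccr1, with an adjusted p of 0.0402. With the replicate number as a block, Ccl3 was the 1 member called at 6d. In 1 fit over all libraries, edgeR called Ccl3 and Ccl4 (adjusted p of 0.00434 and 0.03) and not Ccl5 (0.132). When salivary and marrow scores were added to that fit, it called Ccl3, Ccl5 and Ccr1, the last with a shift of 3.11 ± 1.08 log2 units (SE, adjusted p of 0.0277). The marrow markers summed to 0.415 to 1.20 CPM at 6d and 0.732 to 160 CPM with vehicle.

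At 12d post-Col (10U), 3 of 4 mice held at most 2 reads of Ccl3 and at most 4 of Ccl4. Ccl3 was at 0.0481, 0, 0.108 and 0.588 CPM and Ccl4 at 0.0962, 0, 0.215 and 0.407 CPM, mouse 4 being the highest in both. Ccl5 was at 0.337, 0.0612, 0.970 and 3.44 CPM, with a shift of 1.97 ± 1.26 log2 units (SE) and an edgeR adjusted p of 0.452. Ccr1 was at 1.78, 1.35, 1.78 and 6.74 CPM, within the range of the vehicle mice. Mouse 4 also held 834 CPM of the 7 monocyte and macrophage markers, against 102 CPM in the lowest mouse of the group. EdgeR tested Ccl5 and Ccr1 and called neither, had no member at an unadjusted p under 0.05, and called 0.466% of 14176 genes higher. DESeq2 called no member and 1.14% of its genes, and groups without overlap, found in 9.16% of tested genes, were found in no member.

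**Figure D2:**
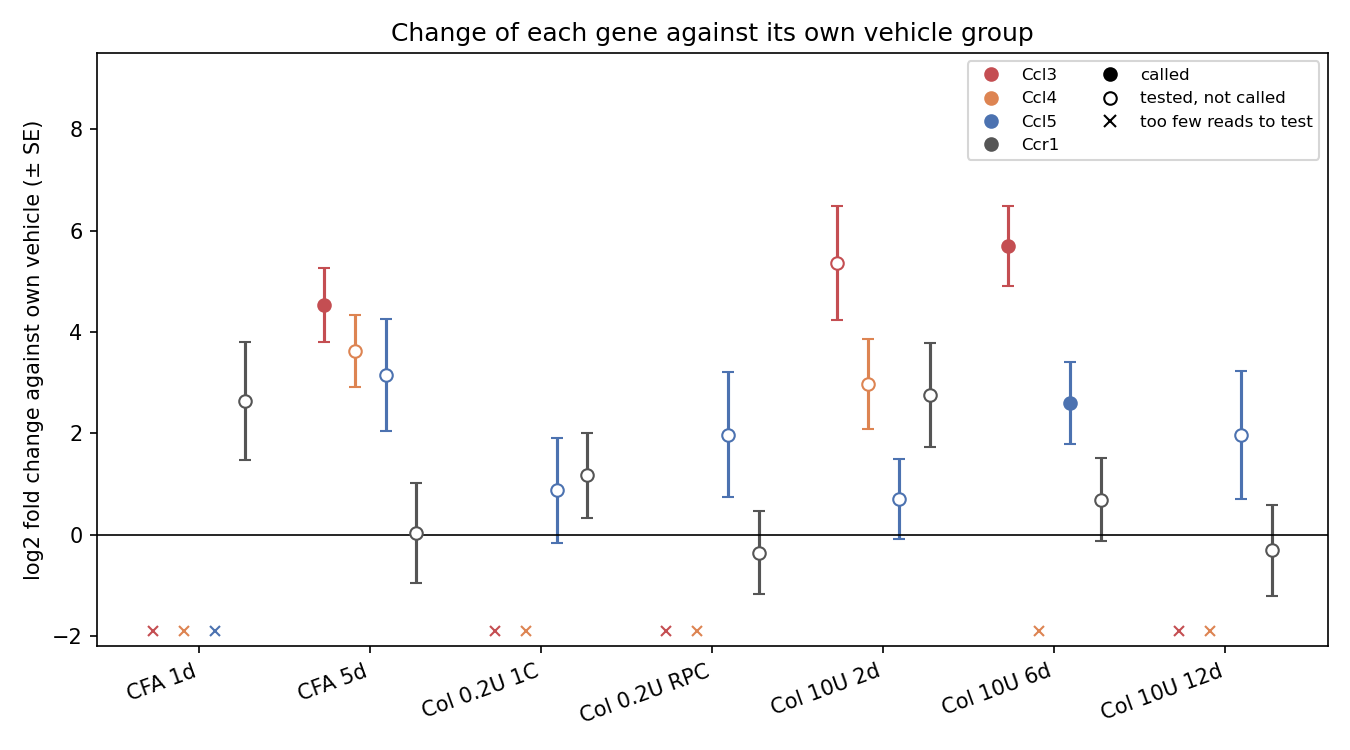
Log2 fold change of each gene against its own vehicle group with its SE, by edgeR. Filled symbols passed all thresholds, open symbols were tested and did not pass, and crosses at the bottom mark genes with too few reads to be tested. Ccl3 at 5d post-CFA (4.54), Ccl3 at 6d post-Col (5.69) and Ccl5 at 6d post-Col (2.60) are the filled symbols.

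The comparisons with vehicle share their control mice within each experiment, and the time points were therefore also compared directly. From 1d to 5d post-CFA, Ccr1 was lower at 5d by a log2 difference of -2.61 ± 0.80 (SE), Ccl3 by -2.02 ± 0.99 and Ccl4 by -1.80 ± 1.0. Ccl5 was higher by 2.01 ± 1.03 (SE). EdgeR called none of the 4, with adjusted p of 0.12, 0.311, 0.37 and 0.333, and 4.33% of 14046 genes were called in either direction. Only Ccr1 had an unadjusted p under 0.05 (0.0122). DESeq2 called Ccr1 lower, within 5.98% of its genes. Without mouse 2 at 1d, edgeR called Ccr1, Ccl3 and Ccl4 lower, with adjusted p of 0.00525, 0.00738 and 0.0273.

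From 2d to 6d post-Col (10U), Ccl5 rose by a log2 difference of 1.90 ± 0.46 (SE, edgeR adjusted p of 0.045), from 0.522 ± 0.160 CPM (SD, n = 4) to 1.96 ± 0.930 CPM (SD, n = 3). Ccl3 differed by 0.31 ± 0.70 (SE) and Ccl4 by 0.22 ± 0.66 in the same comparison. Ccr1 differed by -2.06 ± 0.72 (SE), with an edgeR adjusted p of 0.118, from 25.8 ± 18 CPM (SD, n = 4) to 6.11 ± 2.73 CPM (SD, n = 3). EdgeR called 5.23% of 14513 genes in either direction, DESeq2 7.68%, and DESeq2 called both Ccl5 and Ccr1. The edgeR call on Ccl5 was lost when mouse 1, 2 or 3 at 2d or mouse 1 or 2 at 6d was left out (adjusted p of up to 0.175), and Ccr1 was called as well without mouse 4 at 2d, with an adjusted p of 0.00347. Without a filter on low counts, and in a single fit over all libraries, Ccl5 was not called.

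From 6d to 12d post-Col (10U), Ccl3 fell by 3.82 on the log2 scale (SE 0.84, edgeR adjusted p of 0.0201). EdgeR called 9.7% of 14344 genes in either direction and DESeq2 11.5%, and DESeq2 also called Ccl3 and no other member. Ccl5 and Ccr1 differed by -0.66 ± 0.93 and -1.04 ± 0.58 (SE) and were not called, and Ccl4 had too few reads. The call on Ccl3 was lost without mouse 1 or 3 at 12d or mouse 1 or 2 at 6d (adjusted p of up to 0.0814), and without mouse 4 at 12d Ccl3, Ccl5 and Ccr1 were all called lower, with adjusted p of 0.000759, 0.0357 and 0.00257. Without mouse 4 at 12d all 3 differences were thus larger.

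The effects of CFA at 1d and of Col (10U) at 2d were compared as an interaction, each relative to its own vehicle. CFA minus Col was 1.19 ± 2.13 (SE) on the log2 scale for Ccl3, 2.46 ± 1.66 for Ccl4, 0.48 ± 1.90 for Ccl5 and -0.09 ± 1.62 for Ccr1, with edgeR adjusted p between 0.77 and 0.994. EdgeR called 0.0946% of 14794 genes, and no member had an unadjusted p under 0.05 or was called by DESeq2. The standard errors would leave differences of several-fold unseen. Between the vehicle groups, Ccl3, Ccl4 and Ccl5 were too low to be tested, Ccr1 differed by 0.88 ± 1.23 (SE) with an unadjusted p of 0.494, and 0.0355% of 14070 genes were called by edgeR. DESeq2 called none of the 4 between the vehicle groups.

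Each gene had its own order of groups. Over group means, Ccl3 ran from 4.35 ± 3.96 CPM (SD, n = 3) at 1d post-CFA through 2.92 ± 1.41 at 6d and 2.37 ± 1.74 at 2d post-Col (10U) to 1.04 ± 0.340 at 5d post-CFA, and then 0.410 ± 0.263 in 1C, 0.186 ± 0.272 at 12d, 0.0520 ± 0.0465 with Col vehicle, 0.0471 ± 0.0942 in RPC and 0.0397 ± 0.0372 with CFA vehicle. Its one break without overlap between neighbours lay between 5d post-CFA and 1C. Ccl4 ran from 4.30 ± 3.67 CPM (SD, n = 3) at 1d post-CFA through 1.21 ± 0.753 at 5d post-CFA, 0.856 ± 0.648 at 6d and 0.745 ± 0.341 at 2d post-Col (10U), with its one break below that, to 0.205 ± 0.124 in 1C and lower values elsewhere. Ccl5 was highest at 5d post-CFA, with 2.40 ± 0.935 CPM (SD, n = 3), followed by 1.96 ± 0.930 at 6d post-Col (10U), and no pair of neighbours in its order was free of overlap. Ccr1 was highest at 2d post-Col (10U), followed by 12.8 ± 9.75 CPM (SD, n = 3) at 1d post-CFA and 8.18 ± 4.44 CPM (SD, n = 4) in 1C, and all neighbours in its order overlapped. In 25 of 28 combinations of gene and treated group the mean lay above that of the vehicle group, and the exceptions were Ccl3 in RPC and Ccr1 in RPC and at 12d. The combinations reuse the same vehicle mice, and the share over all genes was not counted. Differences such as that of Ccr1 at 5d post-CFA (2.01 CPM against 1.97 CPM with vehicle) are included.

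Levels of different genes can be compared only per length of exon, as RPKM. At 1d post-CFA Ccl4 had 6.52 ± 5.55 RPKM (SD, n = 3), Ccl3 5.68 ± 5.17, Ccr1 4.51 ± 3.44 and Ccl5 0.628 ± 0.875. At 2d post-Col (10U) the order was Ccr1 with 9.12 ± 6.35 RPKM (SD, n = 4), Ccl3 with 3.10 ± 2.27, Ccl4 with 1.13 ± 0.517 and Ccl5 with 0.544 ± 0.167. The exon length used for Ccl5, 960 bases, joins all annotated transcripts and may understate its RPKM.

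Ccl3 and Ccl4, neighbours on chromosome 11, did not keep the same ratio in every group. At 1d post-CFA Ccl3 took 60.1% (95% Wilson interval 54.7 to 65.2) of the Ccl3 and Ccl4 reads in mouse 1 and 39.7% (34.1 to 45.6) in mouse 3, and at 5d 62.1%, 43.2% and 41.5% in the 3 mice. At 2d post-Col (10U) the share was 63.0% (49.6 to 74.6), 82.8% (71.1 to 90.4), 82.3% (74.6 to 88.0) and 52.6% (31.7 to 72.7) in the 4 mice, and at 6d it was 73.9% (65.9 to 80.6), 78.1% (69.6 to 84.7) and 87.5% (73.9 to 94.5). Over all reads of a group, Ccl3 made up 50.7% at 1d and 46.6% at 5d post-CFA, and 76.1% at 2d and 77.4% at 6d post-Col (10U). The mice of the groups overlapped, mouse 1 at 5d post-CFA (62.1%) lying above mouse 4 at 2d post-Col (52.6%). The intervals cover counting error only, PCR copies of a molecule were not removed, and the ratio was singled out after its values were seen and was not tested.

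**Figure D3:**
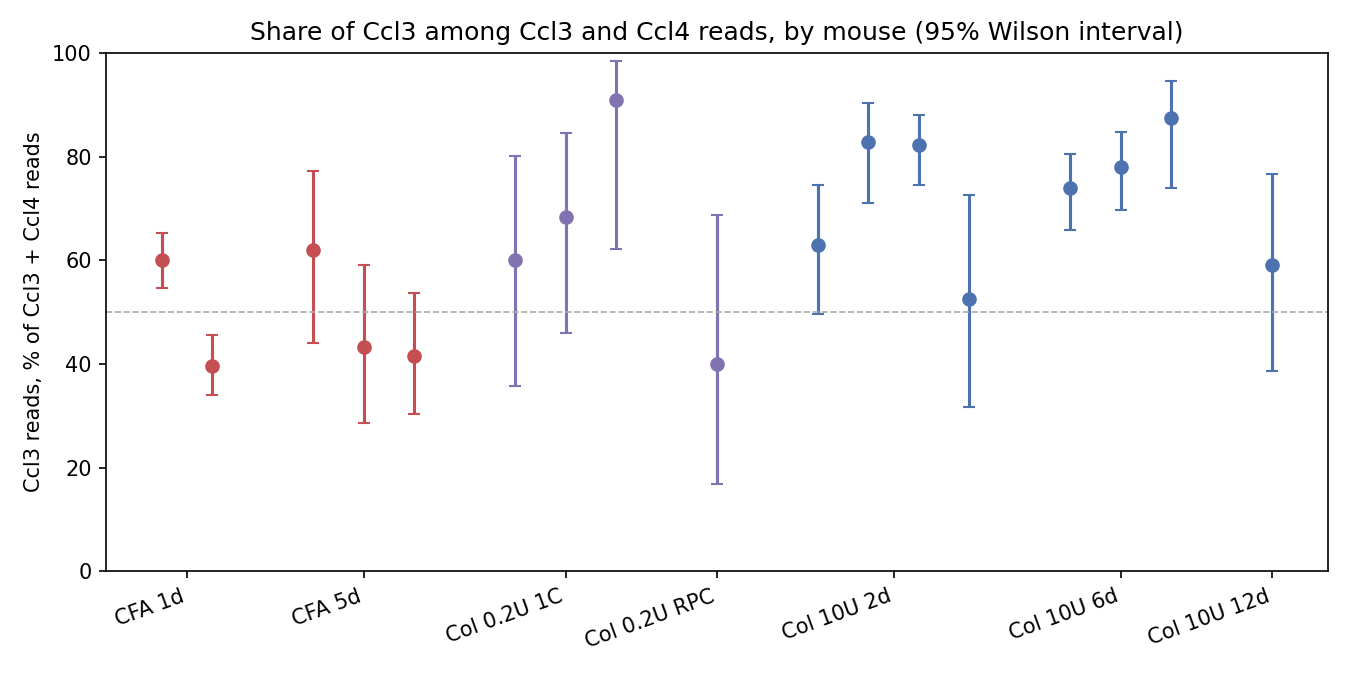
Ccl3 reads as a percentage of Ccl3 and Ccl4 reads in each mouse with at least 10 such reads, with the 95% Wilson interval. The dashed line is at 50%. All 7 mice at 2d and 6d post-Col (10U) lie above the line, from 52.6% to 87.5%, and the CFA mice lie on both sides of it.

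The other Ccr1 ligands that were followed, Ccl6, Ccl7 (a monocyte attractant) and Ccl9, were more abundant per exon length than Ccl3 at 2d post-Col (10U), with 80.0, 34.4 and 32.6 RPKM against 3.10 RPKM. In these mice edgeR called all 3 of them higher, with log2 fold changes of 3.26 ± 0.60 (SE, adjusted p of 0.0483) for Ccl6, 6.54 ± 1.09 (0.0408) for Ccl7 and 2.90 ± 0.57 (0.0483) for Ccl9. Of all genes tested at 2d, 0.946% were called higher. Ccl6 rose from 14.5 ± 4.79 CPM (SD, n = 3) with vehicle to 144 ± 92.5 CPM (SD, n = 4) at 2d. At 6d, 1 of the 3 was called higher, Ccl7 with 3.81 ± 0.59 (SE, edgeR adjusted p of 0.00659), and from 2d to 6d Ccl6 and Ccl9 fell by 2.25 and 1.95 on the log2 scale (edgeR adjusted p of 0.0456 and 0.0464). Over all genes, 8.11% were called higher at 6d and 2.32% lower from 2d to 6d. Post-CFA, none of the 3 was called by edgeR, whereas DESeq2 called all 3 at 1d and Ccl6 and Ccl7 at 5d, and their median log2 fold change at 1d was 2.60 against -0.01 over all tested genes. DESeq2 called 0.318% of its genes higher at 1d and 3.41% at 5d. In group 1C edgeR called none and DESeq2 called Ccl7 and Ccl9, among 1.72% of its genes called higher.

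Of the further receptors, Ccr3, Darc and Ccbp2, none was called in any comparison by edgeR or DESeq2. Ccbp2 at 6d post-Col (10U) shifted by -2.02 ± 0.67 log2 units (SE), with adjusted p of 0.0589 from edgeR and 0.0217 from DESeq2. Its mean was under the RPKM threshold, at 0.831 RPKM with vehicle and 0.211 RPKM at 6d. Darc, which takes up chemokines on endothelium without signalling, had 15 ± 6.28 CPM (SD, n = 3) at 1d post-CFA and 7.31 ± 3.48 CPM (SD, n = 3) with vehicle. Of 13 genes of signalling below chemokine receptors, none was called by edgeR against vehicle in any of the 7 comparisons. At 6d post-Col (10U), Rgs1 had a shift of 3.07 ± 0.59 log2 units (SE, edgeR adjusted p of 0.013) and missed only the RPKM threshold, at 0.726 RPKM. Gnai2 (0.65, adjusted p of 0.0372) and Adrbk1 (-0.57, 0.028) missed only the threshold on fold change. From 6d to 12d, 2 of 13 were called lower. They were Pik3r5, a subunit of a PI3-kinase that G proteins activate, with -1.69 ± 0.51 (SE, adjusted p of 0.0451) and Arrb2, a beta-arrestin that ends receptor signalling, with -1.35 ± 0.33 (adjusted p of 0.0256). Of all genes tested from 6d to 12d, edgeR called 5.09% lower. DESeq2 called 3 of the 13 higher at 6d than with vehicle and 6 of them lower at 12d than at 6d, against 8.03% and 6.22% of its genes. Of 10 transcription factors and inhibitors known for regulating these ligands, Nfkb2, an NF-kB precursor, was the 1 gene called against vehicle by edgeR, at 6d post-Col (10U), with 1.27 ± 0.19 (SE, adjusted p of 0.00551), and it fell by 1.29 towards 12d (adjusted p of 0.00894). As 1 of 10 genes, this is near the 8.11% of all genes called higher at 6d. DESeq2 called Nfkb2 and Relb higher at 2d, Nfkb2 and Irf7 at 6d and Irf7 at 5d post-CFA. The shares of its genes called higher there were 6.27%, 8.03% and 3.41%. Irf7 had 153 ± 115 CPM (SD, n = 3) at 5d post-CFA and 11.2 ± 4.82 CPM (SD, n = 3) with vehicle. Nfkbia, which encodes the inhibitor of NF-kB and is itself a target of it, fell by 1.11 from 2d to 6d (edgeR adjusted p of 0.0075). Of all genes tested from 2d to 6d, edgeR called 2.32% lower.

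Markers of leukocytes and of skeletal muscle varied with the members. At 6d post-Col (10U), 6 of 7 monocyte and macrophage markers were called higher by edgeR, as were 8.11% of all tested genes, and their sum was 1129 to 2308 CPM in the 3 mice against 92.1 to 409 CPM with vehicle. At 2d it was 451 to 1152 CPM, with 0 of 7 called by edgeR and 4 of 7 by DESeq2, which called 6.27% of its genes higher. Neutrophil markers (S100a8, S100a9, Retnlg, Csf3r, Cxcr2) were called higher in neither group, with a sum of 12.4 to 15.7 CPM at 6d and 61.7 to 231 CPM at 2d, against 6.52 to 709 CPM in the 3 vehicle mice. At 6d S100a8 and S100a9 were called lower than with vehicle by edgeR, 2 of 4 tested markers (median log2 fold change -4.35 against 0.01 over all genes, of which 7.27% were called lower). DESeq2 called 3 markers lower, among 8.26% of its genes. From 2d to 6d, edgeR called 3 of 5 neutrophil markers lower, against 2.32% of all genes. The skeletal muscle markers summed to 27293 to 56974 CPM at 2d and 31273 to 53777 CPM at 6d post-Col (10U), below all 3 vehicle mice (88557 to 126603 CPM). At 2d none of the 6 was called by edgeR and 5 were called lower by DESeq2 (5.43% of its genes). At 6d 2 were called lower by edgeR (7.27% of its genes) and 4 by DESeq2 (8.26%). The sum of NK and cytotoxic cell markers was 5.57 to 12.4 CPM at 5d post-CFA against 0.202 to 4.01 CPM with vehicle, and 3.03 to 9.17 CPM at 6d post-Col (10U) against 1.35 to 5.73 CPM. EdgeR called none of them in either group. Among those edgeR tested, DESeq2 called only Gzma, at 5d post-CFA, where it called 3.41% of its genes higher. At 6d the tested markers differed in direction, with log2 fold changes of 2.56 ± 0.70 (SE) for Gzmb, 2.19 ± 0.79 for Gzma, 1.39 ± 0.56 for Klrk1 and -1.19 ± 0.82 for Nkg7. Cd8a and Cd8b1 together were at 0.469 to 0.793 CPM at 5d post-CFA against 0 to 0.258 CPM with vehicle. T cell markers summed to 6.71 CPM at most in any mouse, and no list had a marker without reads in a whole group. Their part in the levels of the 4 genes was not tested.

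Over the 31 libraries, log2 CPM of Ccl3 ran with Ccl4 (Pearson r of 0.865) and Ccr1 (0.706) more than with Ccl5 (0.394), and within groups, as deviations from group means, these values were 0.792, 0.730 and 0.380. Ccl5 had an r of 0.861 with the summed CD8 T cell markers and 0.809 with the NK and cytotoxic cell markers, against 0.505 with the monocyte and macrophage markers. Ccl3 had an r of 0.764 with the monocyte and macrophage markers and 0.0914 with the neutrophil markers. For Ccr1 the values were 0.745 with monocyte and macrophage markers, 0.679 with neutrophil markers and 0.855 with platelet markers (Pf4, Ppbp, Gp9, Itga2b). At 2d post-Col (10U) the markers within these last lists differed in direction. Pf4 shifted from vehicle by 2.18 ± 0.64 log2 units (SE), Ppbp by 0.14 ± 1.17, Itga2b by -0.83 ± 0.82 and Gp9 by -1.41 ± 0.86. Csf3r and Cxcr2 shifted by 1.58 ± 1.2 and 0.43 ± 1.3, and S100a8, S100a9 and Retnlg by -1.62 ± 1.2, -1.63 ± 1.1 and -2.09 ± 1.1. EdgeR called none of these, and DESeq2 called Pf4. With the skeletal muscle markers r was -0.693 for Ccr1, -0.528 for Ccl3, -0.466 for Ccl5 and -0.275 for Ccl4. These are descriptions over libraries that share groups and depth, and counts of a few reads limit those of the ligands. The same limit holds for the CD8 T cell markers, whose sum reached 1.78 CPM at most.

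Genes whose log2 CPM followed each member most closely were sought among 15522 others. For Ccl3 they were Mcoln2 (r of 0.927), Ms4a6d (0.921), Fcgr1, a macrophage receptor for immunoglobulin (0.919), Slc15a3 (0.916) and Lgmn, a lysosomal protease (0.911). For Ccl4 they were the chemokine Ccl12 (0.854), Mcoln2 (0.852), Zbp1, a sensor of nucleic acids (0.845), Oasl1 (0.839) and the acute phase gene Saa3 (0.837). Ccl5 was followed by Ms4a4b (0.924), Klrk1, an activating receptor of NK and CD8 T cells (0.857), H2-Eb1 (0.854), Il2rb, an interleukin receptor chain (0.843), and H2-Ab1 (0.840), where both H2 genes encode chains of MHC class II. Ccr1 was followed by the integrin Itgam (0.952), Cd300lf (0.949), Csf3r, the receptor of granulocyte colony-stimulating factor (0.933), Ncf1, a subunit of the phagocyte oxidase (0.929), and AI662270 (0.926). Within groups the r of these genes lay between 0.618 (Saa3 with Ccl4) and 0.961 (Ncf1 with Ccr1). Mcoln2 was the one gene named for 2 members.

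**Figure D4:**
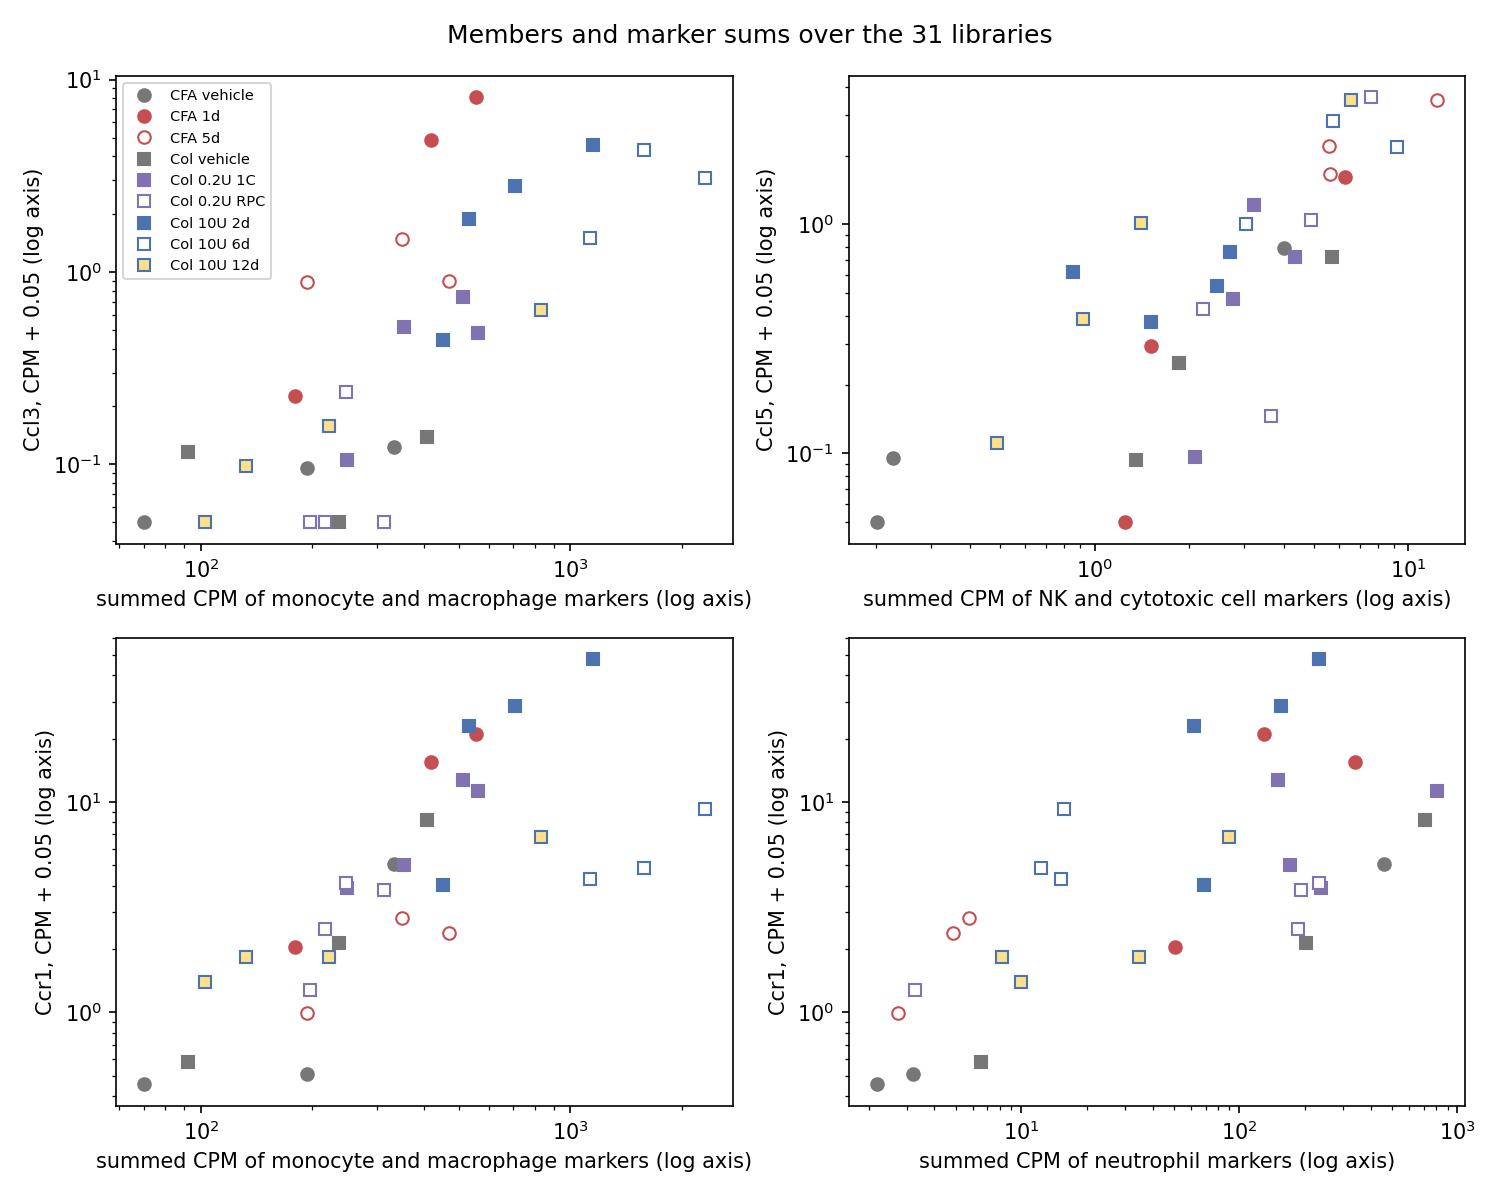
Level of a member (CPM plus 0.05) against the summed CPM of a marker list in each of the 31 libraries, both on log axes. Circles are mice of the CFA experiment and squares those of the Col experiment. Ccl3 and Ccr1 rise with monocyte and macrophage markers (r of 0.764 and 0.745 on log2 scales), and Ccl5 rises with NK and cytotoxic cell markers (0.809).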

How the data were processed

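MM of 31 male mice was profiled by stranded poly(A) RNA-seq with 50-base single-end reads. The authors aligned them with TopHat2 to mm9 and deposited raw counts per gene symbol, which HTSeq produced per the labels. Annotation and strand setting are not given in the sources used here. Closing lines of unassigned reads (no-feature share 6.69 to 22.5%) were left out. The members and gene lists were chosen with earlier results of these data known.

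Tests on the counts used edgeR 4.0.16 under R 4.3.3 with TMM scaling and the quasi-likelihood test, each comparison on its own mice, among genes with at least 10 counts in 3 libraries, with Benjamini-Hochberg adjustment. SE is the absolute log2 fold change over the square root of F. Calls needed an adjusted p under 0.05, a fold over 2 and a mean RPKM over 1 in a group, with exon lengths from GENCODE vM1, and the interaction needed the adjusted p alone. Correlations used log2 CPM with a prior count of 2, and for marker sums the log2 of the summed CPM plus 0.1. Alternatives were DESeq2 1.42.0 with the same thresholds, other scaling, filters, a shared fit, pooled vehicles, a replicate block and each mouse left out. Up to 4 called genes of a list were named per comparison. Scripts were tested on simulated data. Labels do not tie replicate numbers to animals or days. Same-numbered mice deviated together (r over 0.1 in all 3 pairs) between CFA 1d and CFA vehicle (0.118, 0.247 and 0.449) and between the vehicle groups (0.197, 0.117 and 0.624), not elsewhere. No identical pair was found among 465 pairs of libraries. Labels do not say whether mice were handled in separate cohorts, so p-values measure the spread between these mice. The 10U libraries differed from their vehicle libraries in the share of ambiguous reads. In those comparisons, treatment and a difference in processing cannot be told apart. Intervals of ratios are exact binomial.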

Additional observations from a re-analysis of the deposited data

Results flagged for a closer look

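Among 16 combinations of a member and a group of 4 mice, 3 held a mouse that stood far from the rest by Dixon's criterion. Chance flags about 1 in 20 where values are normally distributed, a rate that does not carry over to counts of a few reads. Mouse 4 of the RPC group was the only one of its group with Ccl3 reads, at 0.188 CPM (4 reads), and the highest for Ccl4, at 0.283 CPM (6 reads). Mouse 4 at 12d post-Col (10U) was highest for Ccr1, at 6.74 CPM against 1.35 to 1.78 CPM in the other mice.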

How the results depend on the processing

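The number of the 4 genes called was 1 at 5d post-CFA, 2 at 6d post-Col (10U), 1 from 2d to 6d, 1 from 6d to 12d and 0 in the other comparisons. DESeq2 raised it to 2 at 1d post-CFA, 2 at 5d post-CFA, 3 at 2d post-Col (10U), 3 at 6d post-Col (10U), 1 from 1d to 5d post-CFA and 2 from 2d to 6d. At 5d post-CFA, 0 genes were called with DESeq2's size factors in edgeR, without a filter on low counts, in 1 fit over all libraries, with the replicate number as a block, with both vehicle groups pooled and with salivary and marrow scores as covariates, an alternative added after the data had been seen. At 2d post-Col (10U), 3 were called in 1 fit over all libraries, with pooled vehicles and with the covariates. At 6d, 2 were called in 1 fit, with Ccl4 in place of Ccl5, and 3 with the covariates, with Ccr1 added. From 2d to 6d, 0 were called without the filter, in 1 fit and with the covariates. From 6d to 12d, the covariates gave 2 calls.

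The replicate block, where numbers are shared by different mice, gave 2 calls at 2d, 1 at 6d, 1 from 1d to 5d post-CFA and 2 from 6d to 12d, and changed no call at 1d post-CFA or between the vehicle groups, where same-numbered mice deviated together. From 2d to 6d it called Ccr1 in place of Ccl5, and it turned Ccl3 to -0.0546, Ccl4 to -0.214 and, in RPC, Ccr1 to 0.167.

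Leaving out 1 mouse at a time gave 0 to 3 calls at 5d post-CFA, at 2d and at 6d post-Col (10U), from 1d to 5d post-CFA and from 6d to 12d, and 0 to 2 from 2d to 6d. Sign changes occurred only where the log2 difference was not called. Across these fits Ccr1 ran from -0.458 to 2.29 at 5d post-CFA, from -0.855 to 1.15 in RPC, from -1.16 to 1.2 at 12d and from -0.582 to 3.13 between the vehicle groups. Ccl3 ran from -0.0516 to 0.884 and Ccl4 from -0.422 to 0.696 from 2d to 6d, and in the CFA against Col interaction Ccl5 ran from -1.79 to 3.79 and Ccr1 from -1.51 to 2.1. Ccr1 also changed sign at 5d post-CFA with DESeq2 (-0.00683), its size factors (-0.0115) and pooled vehicles (-0.472), in RPC with pooled vehicles (0.0318) and the covariates (0.0803), and at 12d with pooled vehicles (0.0559) and the covariates (1.04). The cause was not tested.

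Plain CPM gave 24 and DESeq2's scaling 25 of 28 member means above vehicle. Vehicle groups with 3 to 7 reads of Ccl3 or Ccl4 limit the size of their fold changes, and groups of 3 or 4 mice limit all tests.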
